A study of Mus musculus with 22 samples.

Results

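Retinal ganglion cells are the output neurons of the retina, and their axons leave the eye in the optic nerve. The 10 genes described here mark these cells or build their axons: the transcription factor genes Pou4f1, Pou4f2, Pou4f3 and Isl2, the RNA-binding protein gene Rbpms, the neurofilament genes Nefl, Nefm and Nefh, and the genes Sncg and Thy1. They were chosen by symbol as known ganglion cell identity and neurofilament genes, and each matched 1 row of the 54532 genes in each of 2 count tables. All 10 passed the filter on low counts in both tables.

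The libraries are bulk RNA sequencing of the mouse retina with the choroid, so fewer ganglion cells and less RNA per cell cannot be told apart. The wild-type table, from adult C57BL/6J mice, holds 4 libraries of each of 4 groups: age-matched controls without choroidal neovascularisation (CNV), and eyes at day 3, day 7 or day 14 after laser burns. The burns induce CNV, in which vessels of the choroid grow towards the retina. A second table holds 3 libraries of Rag2-/-γc-/- mice (written Rag2 gc KO) and 3 of Rag2-/- mice (Rag2 KO), all at day 3 after the laser. Rag2 knockout mice make no T or B cells, and the common gamma chain, encoded by Il2rg, is needed for natural killer cells. No uninjured Rag2 library was analysed here. The study asks how natural killer cell genes behave after the laser and how these cells protect against CNV.

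POU4F and ISL2 proteins are homeodomain transcription factors. In the mouse retina POU4F2 acts in ganglion cell differentiation and survival, and POU4F1 and POU4F3 are found in overlapping sets of ganglion cells. Neurofilaments are the intermediate filaments of large axons and are assembled from a light, a medium and a heavy subunit. RBPMS marks nearly all ganglion cells of the rodent retina but is also made in smooth muscle, and THY1, a surface glycoprotein of ganglion cells, is also made by T cells and fibroblasts.

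The wild-type libraries held 15033983 to 16848254 counts and the Rag2 libraries 27227847 to 30315086. Rod genes took 5.33% to 5.97% of the counts in control. Day 14 replicate 1 stood apart: 1.19% of its counts were from the 10 rod genes and 7.02% from 20 lens genes, and the mean log2 CPM (counts scaled to a common library size, with TMM factors) of the ganglion cell and neurofilament genes was 1.74, against 4.40 to 5.22 in the other day 14 libraries. Day 14 differences and ratios of the 10 genes are given with and without it. Control replicate 4 is titled as without CNV but has a laser treatment tag, and was kept as control. It had the highest mean log2 CPM of the 10 genes, 5.54, against 5.04 to 5.37 in the other controls. Il2rg had 0 counts in each Rag2 gc KO library, against 37, 62 and 28 counts in the Rag2 KO libraries. Rag2 had 0 or 1 count in each of these 6 libraries, which checks little.

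At day 3 all 10 genes had a lower mean level than in control, by edgeR's fitted values, and so did 49.3% of the 18657 genes tested. Of the 10, 3 fell at an adjusted p under 0.05: Isl2, Pou4f1 and Nefh. Over all genes tested 7.77% fell by this rule. These calls were lost when any single day 3 or control library was left out. In each of those 8 fits 0 of the 10 passed, where 131 of 18959 to 1146 of 18929 genes fell. Pou4f1 was also lost under 3 other scalings that kept Isl2 and Nefh. DESeq2 passed 5 of the 10, where 12.0% of all genes fell, and limma voom 2, where 1439 of 18657 genes fell. The levels at day 3 ran between 23.4% of the control mean for Pou4f2 and 72.3% for Rbpms. At an unadjusted p under 0.05, 6 of the 10 were lower, as were 17.8% of all genes. For 8 of the 10 every day 3 library lay below every control library, as for 22.8% of all genes tested. The median log2 fold change of the 10 was -1.29, against 0.01 over all genes.

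**Figure D1:**
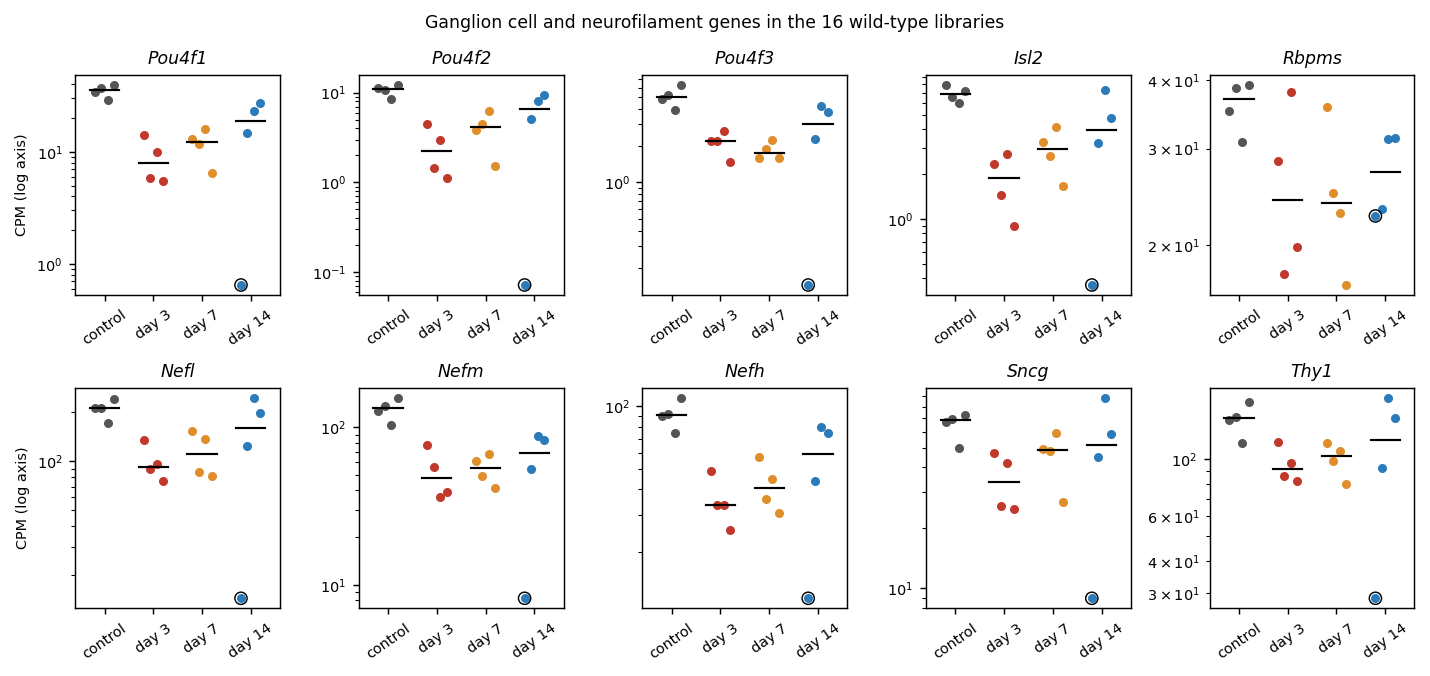
CPM of each of the 10 genes in the 16 wild-type libraries, on log axes that differ between panels. Points are libraries, black lines are group medians, and the ringed point is day 14 replicate 1, which is the lowest library for 9 of the 10 genes.

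Isl2, a LIM-homeodomain factor gene (chr9:55538672-55546180 on mm10, plus strand), had 7.97, 6.55, 6.03 and 7.27 CPM in control. It had 2.32, 1.45, 2.71 and 0.891 CPM at day 3, 3.28, 2.64, 4.14 and 1.66 CPM at day 7, and 0.361, 3.22, 7.36 and 4.73 CPM at day 14. Every day 3 and day 7 library was below every control, and the day 14 libraries spread from far below to within the control range. Isl2 fell at day 3 to 1.84 ± 0.826 CPM, against 6.95 ± 0.847 CPM in control (SD, n = 4 each), a log2 fold change of -1.92 with an SE of 0.566 (edgeR adjusted p = 0.0393).

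Pou4f1 (chr14:104461676-104467999, minus strand) had 34.1, 36.9, 28.8 and 39.8 CPM in control, and 14.2, 5.85, 9.99 and 5.46 CPM at day 3. At day 7 it had 12.9, 11.8, 15.9 and 6.44 CPM, and at day 14 it had 0.649, 14.6, 23.3 and 27 CPM. No library after the laser reached the lowest control, 28.8 CPM. At day 3 Pou4f1 fell to 25.4% of the control mean, with a log2 fold change of -1.98 and an SE of 0.636 (edgeR adjusted p = 0.0496). The 0.649 CPM of day 14 replicate 1 stands for 9 counts.

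Pou4f2 (chr8:78433010-78436645, minus strand) had 11.3, 10.7, 8.50 and 12.3 CPM in control, 4.46, 1.45, 2.98 and 1.13 CPM at day 3, and 3.85, 4.44, 6.21 and 1.53 CPM at day 7. At day 14 it had 0.0721 CPM, which is 1 count, and 5.09, 8.02 and 9.46 CPM. The day 3 and day 7 libraries were all below the controls, and 1 day 14 library lay within the control range. The log2 fold change at day 3 was -2.09 with an SE of 0.726, lower than that of any other of the 10 genes, and did not pass the threshold (edgeR adjusted p = 0.0607).

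The 250 bases upstream of the annotated start are shown for the 3 transcription factor genes whose day 3 levels were closest to each other, between 23.4% and 26.5% of control, to let their upstream letters be compared. RefSeq's promoter table (GRCm38.p6) held 4 of the 10 genes. Each sequence is given on the gene's own strand and ends 1 base before the RefSeq start. For Isl2 that start lies inside the gene as deposited. Capitals mark matches, on either strand, to ATTAAT (a POU-domain core), TAATTA (a homeodomain core) or CANNTG (the E-box). The first pair of motifs can overlap each other.
Pou4f1, chr14:104468000-104468249, minus strand: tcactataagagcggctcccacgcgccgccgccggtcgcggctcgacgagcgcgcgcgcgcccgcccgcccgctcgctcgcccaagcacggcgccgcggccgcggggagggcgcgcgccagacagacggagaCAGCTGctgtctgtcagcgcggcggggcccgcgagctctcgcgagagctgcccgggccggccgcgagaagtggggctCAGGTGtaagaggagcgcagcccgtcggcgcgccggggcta
Pou4f2, chr8:78436648-78436897, minus strand: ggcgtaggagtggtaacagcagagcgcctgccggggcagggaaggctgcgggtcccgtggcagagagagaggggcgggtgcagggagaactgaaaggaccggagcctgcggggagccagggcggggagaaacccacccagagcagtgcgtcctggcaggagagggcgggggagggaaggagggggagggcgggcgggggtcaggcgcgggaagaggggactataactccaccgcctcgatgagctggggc
Isl2, chr9:55540899-55541148, plus strand: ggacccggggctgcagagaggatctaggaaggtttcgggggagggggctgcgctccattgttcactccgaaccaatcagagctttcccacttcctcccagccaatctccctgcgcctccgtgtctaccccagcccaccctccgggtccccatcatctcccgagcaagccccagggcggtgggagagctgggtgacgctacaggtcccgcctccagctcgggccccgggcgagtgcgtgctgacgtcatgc
Pou4f1 held 2 E-box matches, whose first bases lie 118 and 41 bases upstream of the start, and no match to the other motifs. Pou4f2 and Isl2 held no match to any of the 3 motifs. Of 32851 upstream windows of the same length in the table, 66.2% held CANNTG, 4.39% ATTAAT and 4.84% TAATTA.

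Pou4f3 (chr18:42394539-42397249, plus strand) was the lowest of the 10 in control per length, and had 4.82, 5.18, 3.93 and 6.36 CPM. It had 2.20, 2.17, 2.65 and 1.48 CPM at day 3, 1.58, 1.87, 2.25 and 1.59 CPM at day 7, and 0.144, 2.28, 4.22 and 3.76 CPM at day 14. It was below all controls in each day 3 and day 7 library. Its log2 fold change was -1.25 with an SE of 0.515 at day 3 (edgeR adjusted p = 0.0968).

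Rbpms (chr8:33782643-33929863, minus strand) had the smallest fitted difference of the 10 at day 3. It had 35.2, 38.7, 30.8 and 39.3 CPM in control, 28.5, 17.7, 38.1 and 19.8 CPM at day 3, 35.7, 24.9, 22.9 and 16.9 CPM at day 7, and 22.6, 23.3, 31.2 and 31.4 CPM at day 14. At every day 1 or more libraries lay within the control range. Its log2 fold change was -0.47 (SE 0.244) at day 3 and -0.52 (SE 0.244) at day 7, and neither passed the threshold (edgeR adjusted p = 0.169 and 0.155). In day 14 replicate 1, where Pou4f1 was at 0.649 CPM, Rbpms was at 22.6 CPM. Genes of smooth muscle and pericytes, cells that can make Rbpms, summed to 359 to 410 CPM at day 3, against 191 to 264 CPM in control, and to 182 to 725 CPM at day 14, with medians of 195 CPM at day 14 and 199 CPM in control. Of those 14 genes 4 rose at day 3, where 1300 of 18657 genes rose. They were Abcc9, Actg2, Cnn1 and Des, which are named because of their values. Their part in the level of Rbpms was not tested.

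The fitted values of all 3 neurofilament genes were below 0 at each day. Nefl, the light subunit (chr14:68083863-68089095, plus strand), had 212, 213, 172 and 241 CPM in control, 135, 89.0, 95.7 and 75.7 CPM at day 3, 154, 85.8, 137 and 81.7 CPM at day 7, and 14.5, 124, 244 and 196 CPM at day 14. Day 3 and day 7 libraries were all below the controls, while 2 day 14 libraries were not. The log2 fold change at day 3 was -1.08 with an SE of 0.522 (edgeR adjusted p = 0.142).

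Nefm, the medium subunit (chr14:68082590-68124846, minus strand), had 128, 136, 103 and 154 CPM in control and 77.4, 56.2, 36.0 and 39.1 CPM at day 3. It had 61.3, 48.8, 67.4 and 41.2 CPM at day 7 and 8.22, 54.8, 88.0 and 82.9 CPM at day 14. All 12 libraries after the laser were below the lowest control. The log2 fold changes were -1.32 (SE 0.473) at day 3, -1.25 (SE 0.472) at day 7 and -1.15 (SE 0.471) at day 14, with edgeR adjusted p = 0.0666, 0.0898 and 0.159. Without day 14 replicate 1 the day 14 value was -0.77 (SE 0.262).

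Nefh, the heavy subunit (chr11:4938754-4948064, minus strand), had 89.6, 91.9, 74.6 and 110 CPM in control, 48.9, 33.6, 33.7 and 25.5 CPM at day 3, 57.5, 35.8, 45.1 and 30.8 CPM at day 7, and 12.0, 44.1, 79.8 and 74.8 CPM at day 14. Day 3 and day 7 libraries were all below the controls, and the 2 highest day 14 libraries reached the control range. Nefh fell at day 3 to 35.4 ± 9.75 CPM, against 91.4 ± 14.4 CPM in control (SD, n = 4 each), that is -1.37 on the log2 scale with an SE of 0.408, and passed at an edgeR adjusted p of 0.0405.

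Nefl and Nefm lie on opposite strands and share 1108 exonic bases in GENCODE M21, which is 32.8% of the exonic bases of Nefl and 19.2% of those of Nefm. The strand setting of the counting is not given in the sources used here, so reads from the shared bases cannot be assigned with certainty.

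Sncg, a synuclein of neurons (chr14:34370274-34374789, minus strand), had 67.3, 69.2, 49.9 and 72.6 CPM in control, 47.3, 25.7, 41.8 and 24.8 CPM at day 3, 49.3, 47.9, 59.2 and 26.9 CPM at day 7, and 8.94, 45.0, 88.4 and 58.4 CPM at day 14. The day 3 libraries did not overlap with control, and the day 7 and day 14 libraries did. At day 3 the fitted difference was -0.89 on the log2 scale with an SE of 0.457, and edgeR gave an adjusted p of 0.164.

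Thy1 (chr9:44043384-44048579, plus strand) had 142, 146, 115 and 166 CPM in control, 116, 85.8, 96.1 and 81.9 CPM at day 3, 115, 98.1, 107 and 79.6 CPM at day 7, and 28.6, 91.8, 173 and 145 CPM at day 14. A single day 3 library, at 116 CPM, overlapped the lowest control. Its log2 fold change at day 3 was -0.58 with an SE of 0.358 (edgeR adjusted p = 0.238). Markers of other cells that make Thy1 were counted beside it. The 10 fibroblast genes summed to 486 to 1156 CPM at day 3, against 309 to 408 CPM in control. Of these 10, 4 rose, Col1a1, Col1a2, Col3a1 and Mgp, while 2 had values below 0. Over all genes 1300 of 18657 rose at day 3. The 12 T cell genes summed to 3.62 to 13.2 CPM, against 2.03 to 4.02 CPM in control, so the groups overlapped, with none at 0 in all libraries of a group, and 2 of the 4 tested rose, Cd8a and Il7r. These genes are named because of their values, and their part in the level of Thy1 was not tested.

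Levels between genes can be compared per length, as deposited FPKM (counts divided by gene length and library size). In control the mean FPKM was 75.3 for Sncg, 61.4 for Nefl, 47.1 for Thy1, 22.7 for Nefh, 22.3 for Nefm, 7.41 for Pou4f1, 5.44 for Rbpms, 3.31 for Pou4f2, 3.14 for Isl2 and 2.13 for Pou4f3 (n = 4). Libraries of neighbours overlapped between Sncg and Nefl, Nefl and Thy1, Nefh and Nefm, and Pou4f2 and Isl2, and did not overlap between the other neighbours. At day 3 the order was Sncg, Thy1, Nefl, Nefm, Nefh, Rbpms, Pou4f1, Pou4f3, Isl2 and Pou4f2. Pou4f1 thus stood above Rbpms in control without overlap, at 7.41 ± 0.933 and 5.44 ± 0.556 FPKM. At day 3 its mean was below that of Rbpms, 1.91 ± 0.878 and 3.99 ± 1.44 FPKM, with overlap (SD, n = 4 each).

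At day 7, 0 of the 10 genes passed the edgeR threshold, against 6.90% of all genes that fell. At an unadjusted p under 0.05, 6 of the 10 were lower, as were 16.8% of all genes. DESeq2 passed 3 of the 10 at day 7, Nefm, Nefh and Pou4f3, where 11.1% of all genes fell. Limma voom passed 0, where 1458 of 18657 genes fell. All 10 fitted values were below 0, as for 47.8% of all genes, with a median log2 fold change of -1.18 against 0.03 over all genes. The day 7 libraries lay below all controls for 8 of the 10, against 18.4% of all genes. The exceptions were Rbpms and Sncg, and for Thy1 the highest day 7 and the lowest control library both round to 115 CPM. The lowest fitted value was that of Pou4f1, -1.57 with an SE of 0.626 (edgeR adjusted p = 0.105), and the lowest adjusted p was that of Pou4f3, 0.0758, with a log2 fold change of -1.47. Between day 7 and day 3 directly, 0 of the 10 passed, as did 0% of all genes in either direction. The log2 fold changes ran between -0.22 for Pou4f3 and 0.68 for Pou4f2, with 2 of the 10 below 0. At an unadjusted p under 0.05, 0 of the 10 were lower (3.07% of all genes). With so few values below 0, this count says little. The lowest unadjusted p of the 10 in edgeR was 0.254, for Isl2, so 0 were higher by this rule. That count cannot be weighed either, as the share of all genes that were higher is not given here.

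At day 14, 0 of the 10 passed the edgeR threshold, against 0.241% of all genes that fell, and 1 of the 10, Nefm, had an unadjusted p under 0.05, against 11.8% of all genes. All 10 fitted values were below 0, as for 46.4% of all genes. DESeq2, by which 5.10% of all genes fell, and limma voom, by which 88 of 18657 fell, also passed 0. The median log2 fold change was -0.81 in edgeR and -1.24 in limma voom, which gave -1.31 at day 3. Without day 14 replicate 1 the edgeR median at day 14 was -0.44. Without that library 0 of the 10 passed as well, against 0.317% of all genes that fell. The day 14 libraries lay below all controls for 2 of the 10, Nefm and Pou4f1, against 12.8% of all genes. Against day 3, day 14 gave positive fitted values for all 10 genes, with a median of 0.54, where 45.7% of all genes had a value below 0. The median was 0.89 without day 14 replicate 1, and 0.14 without day 14 replicate 3, when 4 of the 10 were below 0. Of the 10, 0 passed, against 0% of all genes that rose and 0.00536% that fell. At an unadjusted p under 0.05, 0 of the 10 were lower (3.44% of all genes). With all 10 fitted values positive, no gene could be lower, so this count cannot be weighed against that share. The lowest unadjusted p of the 10 in edgeR was 0.0712, for Isl2, so 0 were higher by this rule. The share of all genes that were higher is not given here. Without day 14 replicate 1, 4 of the 10 were called higher at day 14 than at day 3, as were 3.10% of all genes: Isl2 by 1.48 on the log2 scale (SE 0.368), Pou4f1 by 1.29 (SE 0.336), Pou4f2 by 1.59 (SE 0.444) and Nefh by 0.91 (SE 0.253). Their edgeR adjusted p-values were 0.0291, 0.0363, 0.0454 and 0.0466. That library was the lowest at day 14 for each of the 10 genes, so leaving it out raises their day 14 levels by construction. With any other single day 14 or day 3 library left out, 0 passed. In each of those fits 0 of all genes rose, so this count says little about the 10. Over all genes 0 fell in them, except without day 3 replicate 3, where 13 of 18942 fell. Limma voom on all libraries gave a median of 0.16 for day 14 against day 3, with 4 of the 10 below 0.

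**Figure D2:**
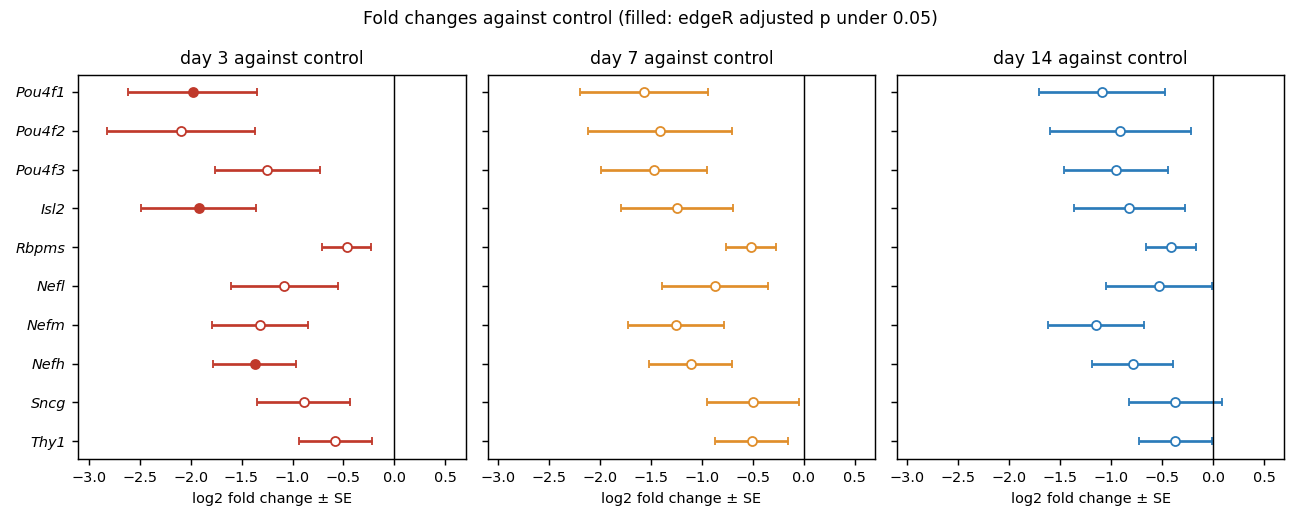
Log2 fold change of each of the 10 genes at day 3, day 7 and day 14 against control, with the SE of the edgeR fit over all 16 wild-type libraries as bars. Filled points passed an adjusted p under 0.05, which Pou4f1, Isl2 and Nefh did at day 3, and all 30 points lie below 0.

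How many of the 10 genes passed depended on day 14 replicate 1, which shares the estimate of the spread although it belongs to neither group. In edgeR's fit without it, 9 of the 10 fell at day 3, all but Rbpms, where 3031 of 18919 genes (16%) fell, and 7 at day 7, all but Rbpms, Sncg and Thy1, where 13.9% of all genes fell. The fold changes were nearly the same and the errors smaller: Pou4f2 at day 3 had a log2 fold change of -2.08 with an SE of 0.423 and an edgeR adjusted p of 0.00325, and Nefl had -1.07 with an SE of 0.250 and an adjusted p of 0.00714. By the adjusted p-values in the authors' deposited table, 9, 8 and 0 of the 10 genes passed at day 3, day 7 and day 14, where 12.4%, 9.62% and 1.94% of all genes were lower.

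Lens and ocular surface content also differed between the libraries. Lens genes took 1.70% to 3.19% of the counts at day 3, against 0.0139% to 0.680% in control. At day 7 the range was 0.00103% to 2.49%, and at day 14 it was 0.0485% to 7.02%. The 13 cornea and conjunctiva genes took 0.484% to 3.18% at day 3, against 0.267% to 0.804% in control. They took 0.566% to 2.79% at day 7 and 0.605% to 1.75% at day 14. With both lists as covariates, 0 of the 10 genes passed at day 3, where 615 of 18657 genes fell. The median log2 fold change of the 10 was then -0.59, with 9 of 10 values below 0. The lens shares of day 3 and control did not overlap, so this fit cannot separate day 3 from lens content. Its SEs at day 3 were wider, such as 0.941 for Pou4f1 against 0.636 in the main analysis. At day 7 under the same model only Rbpms passed, where 1173 of 18657 genes fell.

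Genes of other retinal neurons were counted in the same way. The 20 inner retinal neuron genes, of amacrine, horizontal and bipolar cells, summed to 1352 to 1777 CPM at day 3, against 2205 to 2521 CPM in control. Their median log2 fold change was -0.63, with 3 of 20 falling, against 7.77% of all genes: Onecut1, Slc6a9 and Trpm1, named because of their values. The 10 rod genes had a median of -0.64 with 0 passing and all 10 values below 0, and the 10 Muller glia genes a median of -0.16, with Glul and Car14 lower and Vim and Hes1 higher. Scaled so that the inner retinal neuron genes were level in all libraries, the median of the 10 ganglion cell and neurofilament genes at day 3 was -0.56, with 8 of 10 below 0 and 0 passing. This scaling moved the median of all genes to 0.75, and 0 of 18657 genes fell under it. The part of tissue content in the levels of the 10 genes was not tested further.

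**Figure D3:**
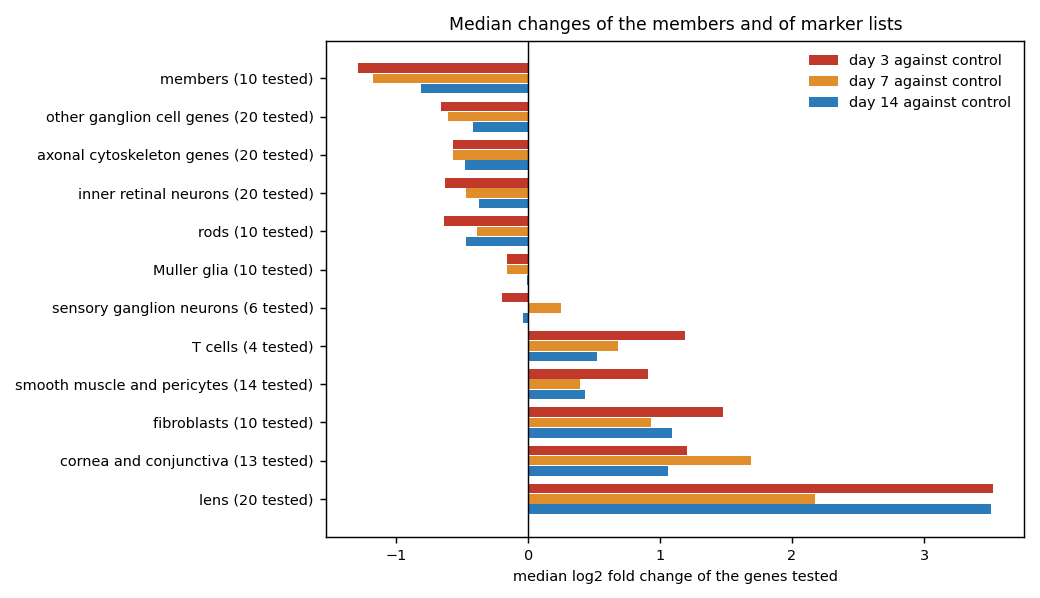
Median log2 fold change against control at day 3, day 7 and day 14 for the 10 ganglion cell and neurofilament genes (members) and 11 marker lists, with the number of genes tested in brackets. Each bar is a median over genes with no error. The members lie lowest, at -1.29, -1.18 and -0.81, and the lens list highest, at 3.52, 2.17 and 3.51.

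Ratios within a library do not depend on scaling between libraries. The log2 ratio of Nefh to Nefl counts was -1.25, -1.21, -1.20 and -1.14 in control, -1.47, -1.40, -1.50 and -1.57 at day 3, -1.42, -1.26, -1.60 and -1.40 at day 7, and -0.27, -1.49, -1.61 and -1.39 at day 14. Every day 3 and day 7 library was below every control, and at day 14 the first replicate alone was above them. The mean difference from control was -0.29 at day 3 and -0.22 at day 7, each with p = 0.0286 in a two-sided exact permutation test, the smallest that 4 against 4 allows. After adjustment over the 8 ratio tests this was 0.0571, so neither passed. At day 14 the difference was 0.01 (exact permutation p = 1), and -0.30 without replicate 1.

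The log2 ratio of Nefm to Nefl was -0.96 ± 0.324 at day 3, against -0.69 ± 0.0439 in control (SD, n = 4 each), with 1 day 3 library inside the control range. It was -1.04 ± 0.215 at day 7 and -1.18 ± 0.271 at day 14, where no library overlapped with control. The exact permutation p was 0.0857 at day 3 and 0.0286 at both later days, and 0.137 and 0.0571 after adjustment, so none passed. Without day 14 replicate 1 the day 14 ratio was -1.30 ± 0.154 (SD, n = 3). The bases shared by Nefl and Nefm enter this ratio and, through Nefl, that of Nefh to Nefl.

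Pou4f1 was also set against Thy1 and Rbpms, which are made outside ganglion cells too. The log2 ratio of Pou4f1 to Thy1 was -2.05, -1.99, -2.0 and -2.06 in control and -3.03, -3.87, -3.27 and -3.91 at day 3. It was -3.15, -3.06, -2.75 and -3.63 at day 7 and -5.46, -2.65, -2.90 and -2.43 at day 14. The 12 libraries after the laser were all below the controls, and the day 14 mean was -3.36 ± 1.41 (SD, n = 4) with all libraries and -2.66 ± 0.236 (SD, n = 3) without replicate 1. The log2 ratio of Pou4f1 to Rbpms was -1.60 ± 0.420 at day 3, -1.11 ± 0.426 at day 7 and -1.61 ± 2.35 at day 14, against -0.05 ± 0.0486 in control (SD, n = 4 each). The day 14 libraries were at -5.12, -0.67, -0.42 and -0.21, and their mean without replicate 1 was -0.44 ± 0.228 (SD, n = 3), nearer to control than day 3 or day 7. Both ratios were chosen after the values were seen and have no test.

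**Figure D4:**
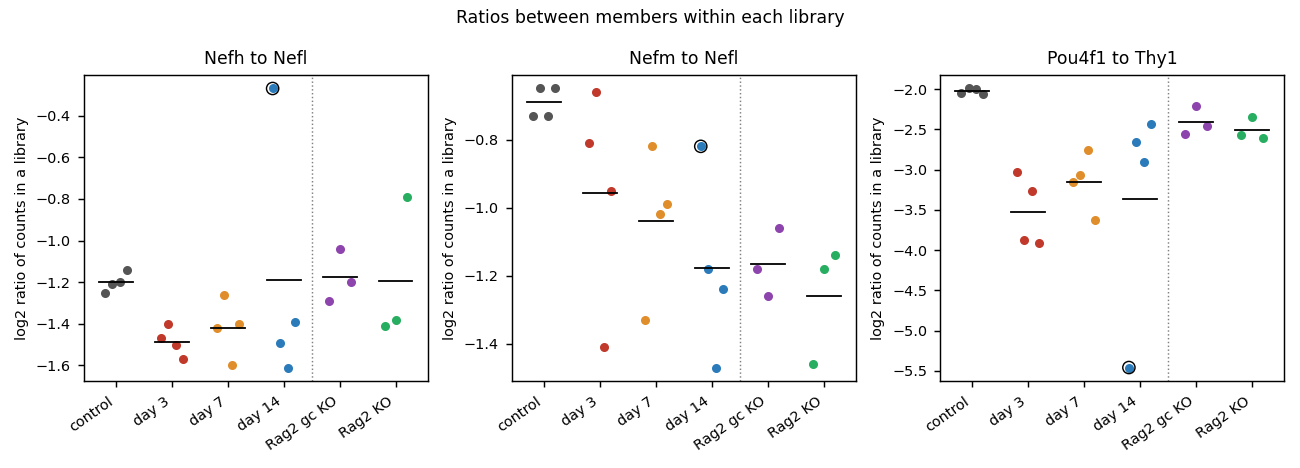
Log2 ratios of counts within each library for Nefh to Nefl, Nefm to Nefl and Pou4f1 to Thy1, in the wild-type groups and, right of the dotted line, in Rag2 gc KO and Rag2 KO. Points are libraries, lines are group means and the ring marks day 14 replicate 1, at -0.27 for Nefh to Nefl and -5.46 for Pou4f1 to Thy1.

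Other genes of ganglion cells and of axons were counted beside these. Of 20 further ganglion cell genes 16 had values below 0 at day 3, as did 49.3% of all genes, with a median log2 fold change of -0.66. Of the 20, 4 fell and 0 rose, against 7.77% of all genes that fell. The 4 were Chrnb3, a nicotinic receptor subunit gene, Ebf1, a transcription factor gene, Rbpms2, a paralogue of Rbpms, and Jam2, an adhesion molecule gene. Chrnb3 was at 21.0 ± 7.27 CPM at day 3, against 55.6 ± 6.18 CPM in control (SD, n = 4 each), which is -1.41 on the log2 scale (SE 0.426, edgeR adjusted p = 0.0420). The log2 values were -0.93 for Ebf1, -0.81 for Rbpms2 and -0.56 for Jam2, with edgeR adjusted p-values of 0.0377, 0.0361 and 0.0174. At day 7 Jam2 alone passed, against 6.90% of all genes that fell, and at day 14 0 did, against 0.241%.

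Of 20 genes of the axonal cytoskeleton and transport, 8 fell and 1 rose at day 3, with a median of -0.57. Over all genes 7.77% fell and 1300 of 18657 rose. Map1a, a microtubule-associated protein gene, was at 71.4 ± 13.7 CPM at day 3, against 175 ± 5.11 CPM in control (SD, n = 4 each), with a log2 fold change of -1.29 and an SE of 0.202 (edgeR adjusted p = 0.00541). It was lower at day 7 and day 14 too, with log2 fold changes of -1.33 and -1.21 (edgeR adjusted p = 0.00630 and 0.0297). The neuronal kinesin gene Kif5a had a value of -1.52 on the log2 scale at day 3, with an SE of 0.342 and an edgeR adjusted p of 0.0180. Kif1a, Dync1h1 and 4 other genes also fell at day 3, with log2 fold changes between -0.99 and -0.62. Tubb2b, a tubulin gene named because of its value, rose by 1.24 on the log2 scale (SE 0.287, adjusted p = 0.0192). At day 7 Map1a, Dync1h1, Kif1a and Kif5a fell, 4 of the 20, against 6.90% of all genes. At day 14 Map1a did, against 0.241% of all genes.

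The mean log2 CPM of the 10 genes was followed most closely over the 16 wild-type libraries, among 13126 genes averaging 5 CPM or more, by Cplx1, Syt2, Lgi3, Nell2 and Mmp9. Pearson's r was 0.991, 0.987, 0.985, 0.985 and 0.981, and Spearman's rho was 0.988, 0.950, 0.982, 0.971 and 0.956. Without the libraries farthest from the median, day 14 replicate 1 and control replicate 4, r was 0.976, 0.966, 0.968, 0.990 and 0.946. With group means removed it was 0.988, 0.987, 0.979, 0.991 and 0.973. Cplx1 and Syt2 encode presynaptic proteins, Lgi3 and Nell2 secreted proteins of the nervous system, and Mmp9 a matrix metalloproteinase. These values describe libraries that share tissue content and depth, and carry no test.

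In the Rag2 table none of the 10 genes passed the test. Between Rag2 gc KO and Rag2 KO 0 of the 10 passed in edgeR, where 0.254% of the 18923 genes tested fell and 0.211% rose, and 0 of the 10 were lower at an unadjusted p under 0.05, against 6.71% of all genes. The groups overlapped for all 10, whereas they did not for 10.6% of all genes in the lower and 11.5% in the higher direction. The log2 fold changes ran between -0.22 for Pou4f3 and 0.11 for Pou4f1, with SEs of 0.0872 to 0.262 and edgeR adjusted p-values of 0.651 to 0.996.

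Pou4f1 had 35.9, 46.8 and 34.8 CPM in Rag2 gc KO, against 36.7, 36.2 and 35.7 CPM in Rag2 KO. Pou4f2 had 9.98, 13.5 and 7.53 CPM in Rag2 gc KO, against 10.5, 10.7 and 10.9 CPM in Rag2 KO. The Rag2 gc KO libraries lay on both sides of the narrow Rag2 KO range for these factor genes. Isl2 had 5.47, 6.37 and 6.58 CPM in Rag2 gc KO, against 6.03, 5.72 and 6.38 CPM in Rag2 KO. Pou4f3 had 6.70, 7.63 and 5.69 CPM in Rag2 gc KO, against 10.1, 6.96 and 6.25 CPM in Rag2 KO. Of the Rag2 KO libraries replicate 1 was highest for Pou4f3.

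Nefl had 241, 315 and 210 CPM in Rag2 gc KO, against 298, 258 and 262 CPM in Rag2 KO. Nefm had 106, 131 and 101 CPM in Rag2 gc KO, against 108, 114 and 119 CPM in Rag2 KO. All 3 Rag2 KO libraries lay within the Rag2 gc KO range for both genes. Nefh had 98.9, 153 and 91.2 CPM in Rag2 gc KO, against 112, 98.9 and 152 CPM in Rag2 KO. One library of each genotype was high for Nefh, replicate 2 of Rag2 gc KO and replicate 3 of Rag2 KO. Rbpms averaged 35.7 ± 5.62 CPM in Rag2 gc KO and 39.0 ± 3.08 CPM in Rag2 KO, Sncg averaged 103 ± 17.7 CPM in Rag2 gc KO and 113 ± 11.9 CPM in Rag2 KO, and Thy1 averaged 207 ± 13.5 CPM in Rag2 gc KO and 206 ± 20.3 CPM in Rag2 KO (SD, n = 3 each). The differences in the log2 ratios of Nefh to Nefl and Nefm to Nefl were 0.01 and 0.09 (exact permutation p = 1 and 0.700, where 3 against 3 cannot go below 0.1).

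**Figure D5:**
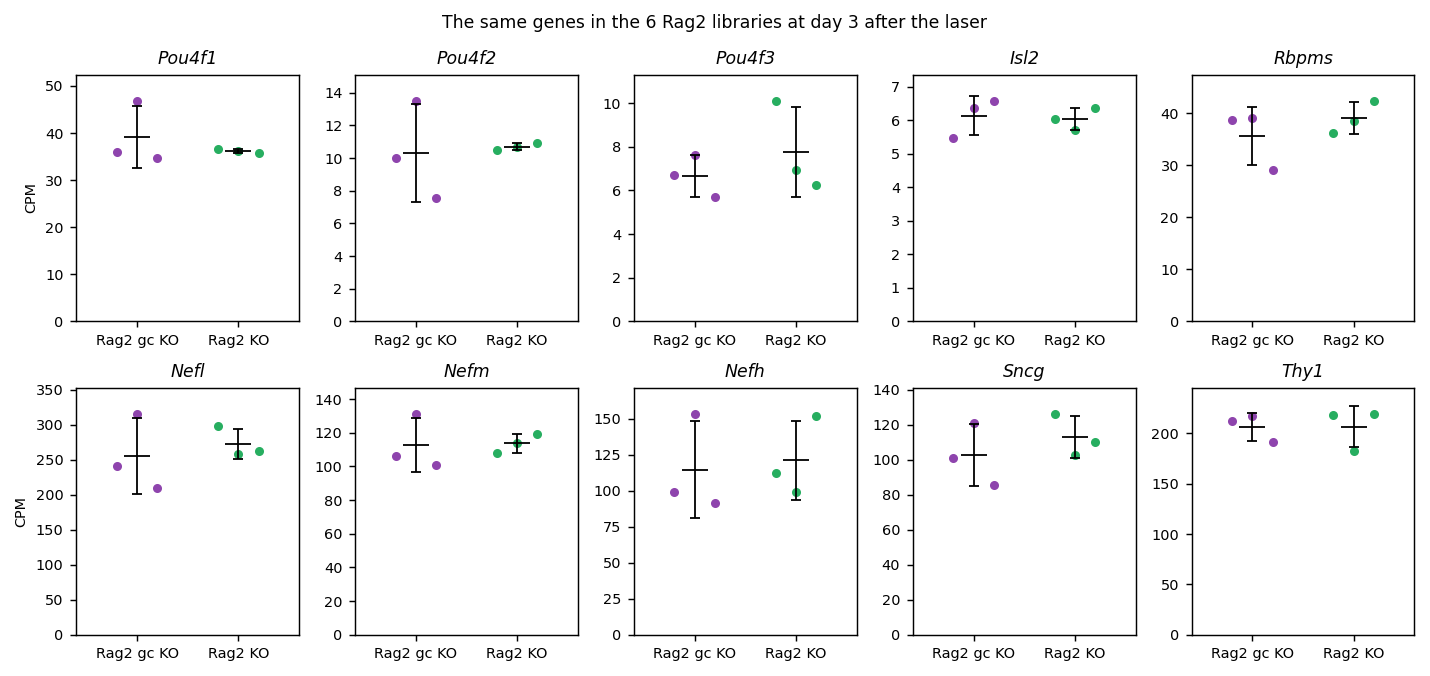
CPM of each of the 10 genes in 3 Rag2 gc KO and 3 Rag2 KO libraries at day 3 after the laser. Points are libraries, bars are the mean ± SD, and axes start at 0; the groups overlap for all 10 genes.

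Set side by side, the Rag2 libraries at day 3 had Pou4f1 at 39.1 ± 6.65 CPM in Rag2 gc KO and 36.2 ± 0.460 CPM in Rag2 KO (SD, n = 3 each). Wild-type libraries had 34.9 ± 4.69 CPM in control and 8.87 ± 4.09 CPM at day 3 (SD, n = 4 each). The log2 ratio of Pou4f1 to Thy1, which needs no scaling, was -2.41 ± 0.180 in Rag2 gc KO and -2.51 ± 0.147 in Rag2 KO, outside both the control range of -2.06 to -1.99 and the day 3 range of -3.91 to -3.03 in the wild type. That of Pou4f1 to Rbpms was -0.11 to 0.26 in Rag2 gc KO and -0.24 to 0.02 in Rag2 KO, overlapping with the wild-type control range of -0.10 to 0.02 and not with the day 3 range of -1.93 to -1.01. Lens genes took 0.00731% to 0.580% of the counts in the Rag2 libraries. The cornea and conjunctiva genes took 0.00142% to 0.00223% in the Rag2 libraries, far below the wild-type libraries, of which the lowest was at 0.267%. The tables were counted and normalised separately, at different depths, so genotype and table cannot be told apart and no test was made.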

How the data were processed

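The 10 genes and all lists were chosen with earlier results of these data known. Per the submitters' processing notes, featureCounts 1.5.0-p3 counted reads on mm10, with aligner and strand setting not given in the sources used here. The authors deposited raw counts per gene and FPKM values, which equal count over gene length times 1 constant per library (100% of values within 0.1%), and log2 fold changes and p-values of their own comparisons, per the file headers.

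From the deposited counts, edgeR 4.0.16 gave the tests (filterByExpr at minimum count 10 and minimum total 15, TMM factors, robust quasi-likelihood fit of group means) in R 4.3.3, over all 16 wild-type or 6 Rag2 libraries, and Benjamini-Hochberg adjusted over 18657 or 18923 genes. The threshold was an adjusted p under 0.05. CPM are TMM-scaled. The fit was tested on simulated data. Alternatives were DESeq2 1.42.0, limma 3.58.1 (voom), other scalings, no filter, covariates, a replicate block and left-out libraries. The rule for named genes took the 10 genes, the 4 genes of each other list with the smallest p, and the 5 genes most like the 10 genes' mean. Other list genes are named because of their values. The labels do not say that libraries come from separate animals, so p-values measure only the spread between these libraries. Low counts limit the precision of the factor genes, such as Pou4f2 with 1 count in day 14 replicate 1.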

Additional observations from a re-analysis of the deposited data

Results flagged for a closer look

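The log2 ratio of Nefh to Nefl counts was -0.27 in day 14 replicate 1, against -1.49, -1.61 and -1.39 in the other day 14 libraries, a gap large for the range of 4 values. In that library Nefl had 201 counts and Nefh 167 counts. The mean ratio at day 14 was -1.19 ± 0.622 (SD, n = 4). The same library stood as far apart in the log2 ratio of Pou4f1 to Thy1, at -5.46 against -2.65, -2.90 and -2.43, and in that of Pou4f1 to Rbpms, at -5.12 against -0.67, -0.42 and -0.21. Of 56 sets of 4 values checked these 3 were so far apart, and chance gives about 5% of such sets. All 3 come from the same library, so they are not separate. Both Pou4f1 ratios share the 9 counts of Pou4f1 there and were chosen after the values were seen, so that 5% does not hold for them.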

How the results depend on the processing

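The number of the 10 genes past the threshold at day 3 was 3 in the main analysis, where 1449 of 18657 genes fell. With the compared groups alone it was 9, where 3874 of 17739 genes fell. It was 9 without day 14 replicate 1 (chosen after seeing the data), where 3031 of 18919 fell. Without 3 libraries (replicate 3 of day 3, replicate 2 of day 7 and replicate 1 of day 14) it was 8, where 2248 of 18783 fell. DESeq2 passed 5, where 2243 of 18657 fell. The number was 2 with DESeq2 size factors, library totals, scaling without lens and cornea genes, or limma voom, where 1004 to 1439 of 18657 genes fell. It was 0 with scaling on inner retinal neurons, without a filter and with lens and cornea covariates, and 0 whichever single day 3 or control library was left out. At day 7, 0 in the main analysis, it was 8 with the compared groups alone, 7 without day 14 replicate 1, 5 without the 3 libraries, 3 with DESeq2 and 1 with covariates. At day 14 it was 0 under every alternative run. For day 14 against day 3 it was 4 without day 14 replicate 1, 1 without the 3 libraries (278 of 18783 genes rose), and 0 to 4 over left-out libraries. For day 7 against day 3 and for Rag2 gc KO against Rag2 KO it was 0 under every alternative run. The causes were not tested.

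Replicate numbers did not pair the libraries: same-numbered wild-type libraries correlated at -0.506 to 0.479, with 12 of 24 pairs over 0.1 and 4 of 16 libraries best with their own number, and Rag2 pairs at -0.0582 to 0.0780, with 2 of 6. With the replicate block 1 of the 10 genes, Isl2, passed at day 3, where 1307 of 18657 genes fell, and 0 in the other comparisons.

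Signs against control turned in 3 of 200, 3 of 200 and 5 of 190 fits of single genes at day 3, day 7 and day 14, for Rbpms, Thy1 or Sncg. They turned in 15 of 200 for day 7 against day 3 (6 genes, Nefm most often with 6), 18 of 190 for day 14 against day 3 (5 genes, Nefm most often with 5) and 23 of 140 for the Rag2 groups (8 genes, Thy1 most often with 6). With scaling on inner retinal neurons the log2 fold change was 0.34 for Rbpms and 0.16 for Thy1 at day 3; 0.06 for Rbpms, 0.07 for Sncg and 0.06 for Thy1 at day 7; and 0.41 for Rbpms, 0.00 for Sncg and 0.06 for Thy1 at day 14. With covariates Thy1 was 0.07 at day 3. Sncg at day 14 was 0.00 without day 14 replicate 1 or the 3 libraries, and -0.79 to 0.00 with 1 library left out. Between the Rag2 groups Pou4f1 was -0.04 without Rag2 gc KO replicate 2 (-0.04 to 0.19 over left-out libraries) and Pou4f3 0.02 without Rag2 KO replicate 1 (-0.36 to 0.02). With 1 library left out, the Nefh to Nefl difference was -0.32 to -0.26 at day 3, -0.28 to -0.16 at day 7, -0.30 to 0.15 at day 14 (turning to -0.30 without day 14 replicate 1 and -0.01 without control replicate 1) and -0.09 to 0.22 for Rag2 (-0.05 without Rag2 gc KO replicate 2, -0.09 and -0.08 without Rag2 KO replicate 1 or 2). The Nefm to Nefl difference was -0.37 to -0.12, -0.42 to -0.25, -0.61 to -0.39 and -0.01 to 0.15 for Rag2.

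Over all genes, 2749 passed at day 3, 1962 at day 7, 51 at day 14, 0 between day 7 and day 3, 1 between day 14 and day 3, and 88 in the Rag2 table. With DESeq2 these were 4799, 3768, 1778, 63, 115 and 695; with the compared groups alone 7171, 4485, 1, 0 and 0; without the 3 libraries 4168, 3686, 514, 9 and 683; with covariates 946, 1730, 160, 3 and 123. Without a filter 1406, 751, 26, 2 (day 14 against day 3) and 491 (Rag2) passed. With limma voom 101 passed at day 14, 3 between day 14 and day 3 and 43 in the Rag2 table, and with the block 2, 0 and 46. With inner retinal scaling 40 genes rose and 0 fell at day 3, 1 rose and 1 fell at day 7, 1 rose and 0 fell at day 14, 0 passed between day 14 and day 3, and 219 rose and 49 fell in the Rag2 table. The split of rises and falls was 1300 and 1449 at day 3, 675 and 1287 at day 7 and 6 and 45 at day 14; with library totals it was 1406 and 1004, 799 and 631, and 2 and 4. Library totals gave 4 genes between day 14 and day 3. With 1 library left out the counts ran over 292 to 6188 at day 3, 128 to 4645 at day 7, 1 to 159 at day 14, 0 to 15 between day 7 and day 3, 0 to 1290 between day 14 and day 3, and 25 to 116 for Rag2.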
